A study of Homo sapiens with 8 samples.

Results

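The genes described here encode 9 enzymes that make or interconvert aspartate, asparagine, glutamine and glutamate: GOT1, GOT2, MDH1, MDH2, GLUD1, GPT2, ASNS, ASS1 and GLUL. They were taken by symbol from the 38010 Ensembl gene IDs of the count table, each symbol matched 1 ID, and all 9 passed the filter on low counts. Gene coordinates are those of GENCODE 29 on GRCh38. The cells were Ea.hy926, a human line made by fusing endothelial cells of the umbilical vein with A549, a lung carcinoma line. The Rho0 group was the line labelled OXPHOS-deficient, with 4 libraries, and Eahy was its parental line, also with 4. Both lines were cultured to confluence and the libraries of each are labelled as biological replicates, but each group is 1 line, so loss of respiration and any other way the lines came to differ cannot be told apart. All values come from bulk messenger RNA, in which less RNA per cell and fewer cells expressing a gene cannot be told apart.

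Aspartate is built from oxaloacetate and glutamate by the aspartate aminotransferases, GOT2 in mitochondria and GOT1 in the cytosol. Together with the malate dehydrogenases MDH2 and MDH1 they form the malate-aspartate shuttle, which moves reducing equivalents across the inner mitochondrial membrane. A working respiratory chain reoxidises mitochondrial NADH and so lets cells make aspartate. Cells without respiration are known to depend on aspartate supply for growth. Aspartate is then used by asparagine synthetase (ASNS), by argininosuccinate synthetase (ASS1) and in nucleotide synthesis, while glutamine synthetase (GLUL), glutamate dehydrogenase (GLUD1) and the mitochondrial alanine aminotransferase (GPT2) link glutamate to ammonia and to pyruvate.

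Libraries held 11721448 to 37203313 estimated counts in Rho0 and 23365946 to 28599112 in Eahy. Messenger RNA of mitochondrial DNA made up 0.00296% to 0.149% of the Rho0 libraries, highest in replicate 2, and 16.05% to 21.4% of the Eahy libraries. The 10 endothelial markers summed to 4440 to 4710 CPM (counts scaled to a common library size) in Rho0 and 4040 to 4360 in Eahy. These sums did not overlap, and CLDN5 stayed under 1 CPM in every library. Single endothelial markers went both ways. PECAM1 averaged 2120 CPM in Rho0 and 1090 in Eahy, and KDR 131 and 13.8. CDH5 averaged 1030 CPM in Rho0 and 1720 in Eahy, and ESAM 264 and 413. The 8 epithelial markers summed to 1310 to 2100 CPM in Rho0 and 2620 to 2890 in Eahy, so those sums did not overlap either. KRT8 averaged 385 CPM in Rho0 and 889 in Eahy, and KRT18 487 and 900, whereas MUC1 had 16.1 and 11.1. KRT19 stayed under 1 CPM. Of 6 fibroblast markers, 5 stayed under 1 CPM in every library, and of 6 leukocyte markers 4 did, with CD3E at 0. The leukocyte markers summed to 5.56 to 6.72 CPM in Rho0 and 1.83 to 2.58 in Eahy, most of it LYZ (means of 5.1 and 1.4). The fibroblast markers summed to 1.46 to 2.32 CPM in Rho0 and 1.65 to 2.51 in Eahy. The part of these differences in the results was not tested.

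Of the 9 genes, 3 were called higher in Rho0 (ASNS, ASS1 and GPT2), 2 were called lower (GOT2 and MDH2), and 4 did not pass (quasi-likelihood test of edgeR at a Benjamini-Hochberg adjusted p of 0.05 over all genes tested). The lines differed widely: 54.4% of the 15184 genes tested were called, 29% higher and 25.4% lower, so counts of 3 and 2 among 9 (33.3% and 22.2%) lie near the background and are no result about the set. The median log2 fold change was 0.21 over the 9 genes and 0.05 over all genes. Levels in the 2 lines did not overlap for 6 of the 9, with 4 higher in Rho0, against 26.6% of all genes, and 2 lower, against 24.3%. The plot of CPM by library shows each gene in turn.

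**Figure D1:**
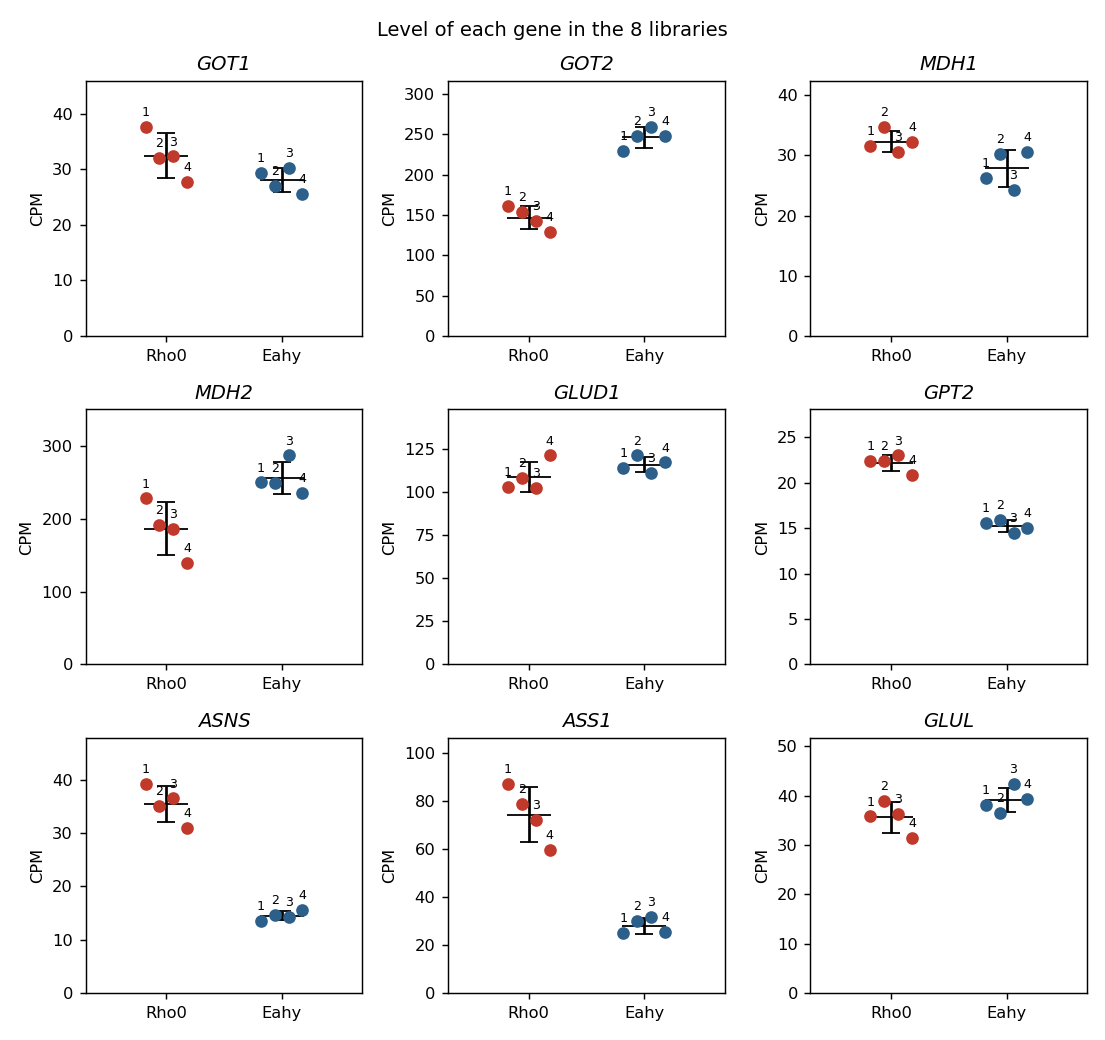
CPM of each of the 9 genes (vertical axes, from 0) in the 4 Rho0 libraries (red) and the 4 Eahy libraries (blue), numbered by replicate, with mean and SD in black. ASNS and ASS1 stand well above their Eahy levels in all 4 Rho0 libraries, and GOT2 well below, while GOT1, GLUD1 and GLUL overlap.

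Of the 9 genes, ASS1 and ASNS had the highest fold changes. ASNS (ENSG00000070669, chr7:97852118-97872542, minus strand), which makes asparagine from aspartate and glutamine, had 39.2, 35.1, 36.5 and 31.0 CPM in Rho0 replicates 1 to 4, against 13.5, 14.6, 14.3 and 15.6 CPM in Eahy. Its lowest Rho0 library lay well above the highest Eahy library. The mean was 35.5 ± 3.42 CPM in Rho0 and 14.5 ± 0.860 CPM in Eahy (SD, n = 4 each). This was a rise of 2.44-fold (log2 fold change 1.29, standard error 0.09, adjusted p = 9.0e-07 in edgeR). Of all genes tested, 6.02% had a larger log2 fold change. ASNS shares 1985 exonic bases with AC079781.5 on the same strand, a gene that is not in the count table.

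ASS1 (ENSG00000130707, chr9:130444929-130501274, plus strand), which joins citrulline and aspartate in the urea cycle and in arginine synthesis, had 87.0, 78.7, 71.9 and 59.5 CPM in Rho0, against 24.9, 30.0, 31.7 and 25.3 CPM in Eahy. The lines did not overlap, although Rho0 replicates differed more from each other than for ASNS. The mean was 74.3 ± 11.6 CPM in Rho0 and 28.0 ± 3.38 CPM in Eahy (SD, n = 4 each), 2.65-fold higher in Rho0 (log2 fold change 1.41, standard error 0.13, adjusted p = 5.7e-06 in edgeR). Counts on the 14 ASS1 copies found by symbol came to 0.537% to 1.84% of those on ASS1 itself, and adding them to the gene changed no call.

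Sequences upstream of the members were read because ASNS is a textbook target of the amino acid response, in which ATF4 binds a composite C/EBP-ATF element. RefSeq windows of 250 bases before to 50 after a transcript start (GRCh38.p14) were held for 8 of the 9 genes, all but GPT2, with 12 windows in all. They were searched on both strands for 3 motifs, chosen with the results known: TGATGNAA (the C/EBP-ATF element), CACGTG (the E-box of MYC and related factors) and CCGGAAGT (the ETS site of GABPA and relatives). None of the matches overlapped another motif. Sequence from the 4 windows with a match is printed on the sense strand of the gene, with matches in capitals to show where each match stands. For ASS1 and MDH2 it is the part of the window outside the exons of the gene in GENCODE 29. For ASNS and GOT1, whose match lies in an exon of a transcript that starts further upstream, it is 30 bases around the match.

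ASNS, chr7:97872458-97872487, minus strand: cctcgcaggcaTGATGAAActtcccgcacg
GOT1, chr10:99430804-99430833, minus strand: aattgcattggTTGCATCAttctcggcagc
ASS1, chr9:130444711-130444928, plus strand: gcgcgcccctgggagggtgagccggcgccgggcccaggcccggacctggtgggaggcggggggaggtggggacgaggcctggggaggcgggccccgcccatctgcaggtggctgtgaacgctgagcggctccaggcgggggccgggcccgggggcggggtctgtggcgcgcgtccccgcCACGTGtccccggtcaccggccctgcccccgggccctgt
MDH2, chr7:76047856-76048050, plus strand: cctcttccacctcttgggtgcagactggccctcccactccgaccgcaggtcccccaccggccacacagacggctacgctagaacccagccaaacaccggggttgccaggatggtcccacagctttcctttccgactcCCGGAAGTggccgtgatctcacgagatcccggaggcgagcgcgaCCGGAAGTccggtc

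The ASNS window held 1 TGATGNAA match, at -68 from the start (TGATGAAA), and the GOT1 window held 1 on the opposite strand, at -198. Such a match stood in 3.62% of all 35116 windows. The ASS1 window held 1 CACGTG at -71, found in 7.26% of all windows, and the MDH2 window held CCGGAAGT at -113 and -69, found in 4.14%. The other ASNS and ASS1 windows and those of GOT2, MDH1, GLUD1 and GLUL held none of the 3. A match is a description of the letters in these windows only.

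The aspartate aminotransferases moved apart. GOT2 (ENSG00000125166, chr16:58707131-58734357, minus strand), the mitochondrial form, had 161, 154, 143 and 129 CPM in Rho0, against 229, 248, 259 and 248 CPM in Eahy. Every Rho0 library lay below every Eahy library. The mean was 147 ± 13.7 CPM in Rho0 and 246 ± 12.7 CPM in Eahy (SD, n = 4 each), and GOT2 fell to 0.596 of its Eahy level (log2 fold change -0.75, standard error 0.08, adjusted p = 2.4e-05 in edgeR).

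GOT1 (ENSG00000120053, chr10:99396870-99431569, minus strand), the cytosolic form, had 37.6, 32.0, 32.3 and 27.7 CPM in Rho0, against 29.3, 27.0, 30.3 and 25.6 CPM in Eahy. The lines overlapped, since Rho0 replicate 4 lay within the Eahy range. GOT1 was not called (log2 fold change 0.21, standard error 0.10, adjusted p = 0.107 in edgeR), and the value depended on single libraries. It was called at 0.28 without Rho0 replicate 4 (adjusted p = 0.0175), and it was 0.10 without Rho0 replicate 1 (adjusted p = 0.38).

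Within a library, the ratio of GOT2 to GOT1 counts does not depend on how libraries are scaled. It was 4.27, 4.81, 4.42 and 4.67 in Rho0, against 7.79, 9.19, 8.55 and 9.69 in Eahy. The ratio was lower in every Rho0 library than in any Eahy library. On the log2 scale it averaged 2.18 ± 0.08 in Rho0 and 3.13 ± 0.14 in Eahy (SD, n = 4 each), a difference of -0.95 (two-sided exact permutation p = 0.0286, which is the least that 70 arrangements can give, and 0.0286 after adjustment over the ratios tested).

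The malate dehydrogenases showed a like difference. MDH2 (ENSG00000146701, chr7:76048051-76067508, plus strand), which turns malate to oxaloacetate in the citric acid cycle, had 228, 192, 186 and 139 CPM in Rho0, against 250, 249, 287 and 236 CPM in Eahy. The lines did not overlap, but Rho0 replicate 1 lay close to the lowest Eahy library. MDH2 averaged 186 ± 36.5 CPM in Rho0 and 256 ± 22.0 CPM in Eahy (SD, n = 4 each) and fell to 0.728 of its Eahy level (log2 fold change -0.46, standard error 0.13, adjusted p = 0.013 in edgeR), although it was not called with scaling by library size alone (-0.07). Its spread among Rho0 libraries, 19.6% of the mean, was the widest of the 9 genes there.

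MDH1 (ENSG00000014641, chr2:63588609-63607197, plus strand), the cytosolic form, had 31.5, 34.7, 30.6 and 32.2 CPM in Rho0, against 26.3, 30.3, 24.3 and 30.5 CPM in Eahy. The lines did not overlap, by a narrow margin, and MDH1 was not called (log2 fold change 0.21, standard error 0.09, adjusted p = 0.0721 in edgeR). After correction for transcript length and GC content its value was 0.11 (adjusted p = 0.302). The ratio of MDH2 to MDH1 counts was 7.23, 5.52, 6.07 and 4.30 in Rho0, against 9.49, 8.23, 11.8 and 7.73 in Eahy.

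On the log2 scale that ratio averaged 2.51 ± 0.31 in Rho0 and 3.20 ± 0.27 in Eahy (SD, n = 4 each), a difference of -0.69 (two-sided exact permutation p = 0.0286, the smallest possible, and 0.0286 after adjustment over the ratios tested). All Rho0 ratios lay below all Eahy ratios. Without Rho0 replicate 4 the difference was -0.56, and the exact permutation p was then 0.0571. It was 0.0571 too without any 1 of the Eahy replicates, with differences of -0.57 to -0.78. MDH1 shares 191 exonic bases with WDPCP on the opposite strand, and the sources used here do not say whether the counting used strand.

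**Figure D2:**
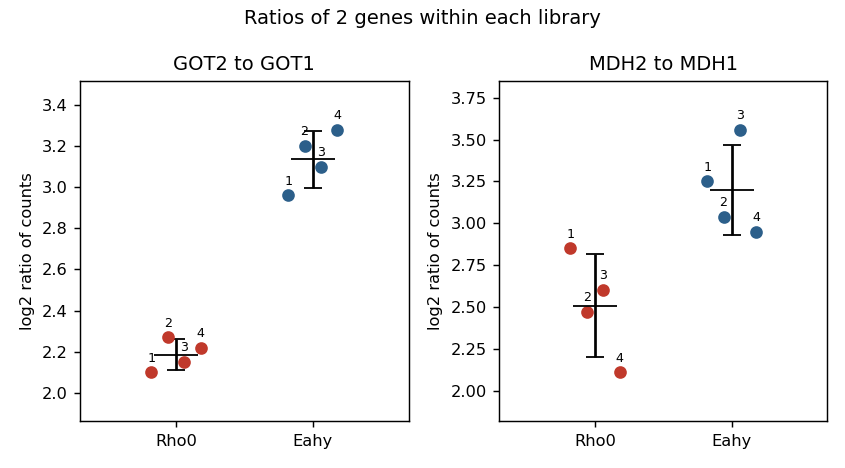
log2 ratio of the counts of 2 genes in each library (vertical axes) for GOT2 to GOT1 and MDH2 to MDH1, with the 4 Rho0 libraries in red, the 4 Eahy libraries in blue, and mean and SD in black. In each panel all 4 Rho0 libraries lie below all 4 Eahy libraries, with mean differences of -0.95 and -0.69.

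Of the glutamate enzymes in mitochondria, GPT2 rose. GPT2 (ENSG00000166123, chr16:46884378-46931297, plus strand), which passes the amino group of glutamate to pyruvate to give alanine, had 22.4, 22.4, 23.0 and 20.9 CPM in Rho0, against 15.6, 15.9, 14.5 and 15.0 CPM in Eahy. The lines lay clearly apart and the replicates close together. The mean was 22.2 ± 0.928 CPM in Rho0 and 15.3 ± 0.643 CPM in Eahy (SD, n = 4 each), 1.45-fold higher in Rho0 (log2 fold change 0.54, standard error 0.07, adjusted p = 1.4e-04 in edgeR). Its cytosolic counterpart GPT had 1.47 ± 0.643 CPM in Rho0 and 1.26 ± 0.311 CPM in Eahy and was not called.

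GLUD1 (ENSG00000148672, chr10:87050486-87094866, minus strand), which converts glutamate to 2-oxoglutarate and ammonia, had 103, 108, 102 and 121 CPM in Rho0, against 114, 121, 111 and 117 CPM in Eahy. The lines overlapped, with Rho0 replicate 4 level with the highest Eahy library. GLUD1 was not called (log2 fold change -0.09, standard error 0.07, adjusted p = 0.298 in edgeR), but without Rho0 replicate 4 it was called at -0.16 (adjusted p = 0.0405). Counts on 6 copies, GLUD2 and pseudogenes, came to 1.06% to 1.54% of those on GLUD1. GLUD1 shares 464 exonic bases with SHLD2 on the opposite strand. GOT1 shares 651 with AL391684.1 and GOT2 162 with AC092378.1, each on the opposite strand and absent from the count table.

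GLUL (ENSG00000135821, chr1:182381704-182392206, minus strand), which makes glutamine from glutamate and ammonia, had 35.8, 39.0, 36.3 and 31.5 CPM in Rho0, against 38.2, 36.6, 42.4 and 39.4 CPM in Eahy. The lines overlapped and GLUL was not called (log2 fold change -0.14, standard error 0.08, adjusted p = 0.183 in edgeR). Without Rho0 replicate 4 its value was -0.09 (adjusted p = 0.298). For the 4 genes not called, a p above the threshold does not show that the lines had equal levels.

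**Figure D3:**
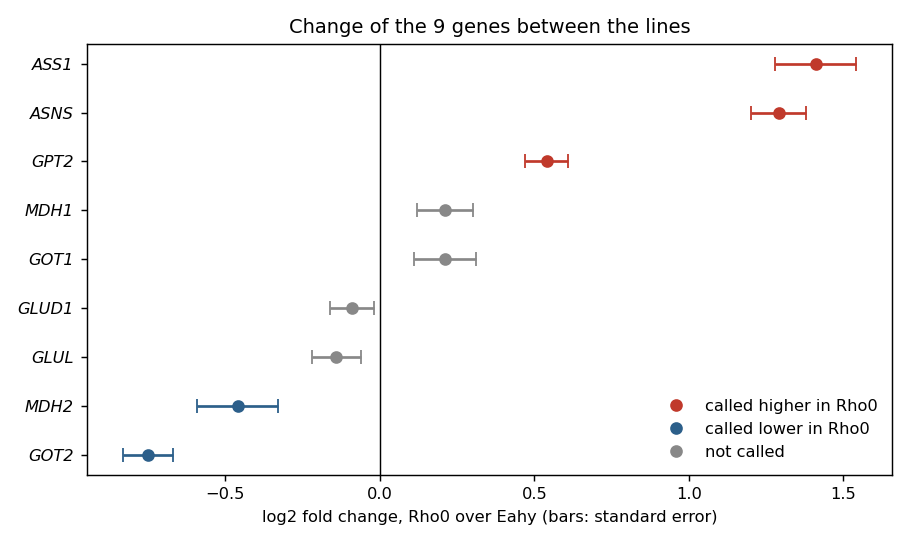
log2 fold change of Rho0 over Eahy with its standard error (horizontal axis) for the 9 genes, coloured by call. ASS1 (1.41), ASNS (1.29) and GPT2 (0.54) were called higher, MDH2 (-0.46) and GOT2 (-0.75) lower.

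Levels can be compared between genes only per transcript length, here CPM per kilobase of the median coding transcript in GENCODE 29. In Rho0 the order was MDH2 (104 ± 20.5 CPM per kilobase), GOT2 (72.0 ± 6.74), ASS1 (48.0 ± 7.52), MDH1 (39.9 ± 2.21), GLUD1 (35.7 ± 2.86), ASNS (22.3 ± 2.15), GOT1 (11.1 ± 1.39), GLUL (8.17 ± 0.704) and GPT2 (5.56 ± 0.233) (SD, n = 4). The ranges of MDH2 and GOT2, of ASS1 and MDH1, of ASS1 and GLUD1, and of MDH1 and GLUD1 overlapped there. In Eahy the order was MDH2 (143 ± 12.3 CPM per kilobase), GOT2 (121 ± 6.25), GLUD1 (38.1 ± 1.34), MDH1 (34.5 ± 3.75), ASS1 (18.1 ± 2.19), GOT1 (9.60 ± 0.732), ASNS (9.13 ± 0.541), GLUL (8.97 ± 0.561) and GPT2 (3.83 ± 0.161). GLUD1 and MDH1 overlapped in Eahy, as did GOT1 with ASNS, GOT1 with GLUL, and ASNS with GLUL. By its mean, ASS1 stood at place 3 in Rho0, where its range overlapped those of MDH1 and GLUD1, and at place 5 in Eahy. The places of MDH1 in Rho0 and of ASNS in Eahy depend on the transcript taken. With the longest coding transcripts MDH1 had 19.5 CPM per kilobase in Rho0, below GLUD1, and 16.9 in Eahy. ASNS then had 6.15 CPM per kilobase in Eahy, below GLUL at 8.3.

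The Rho0 libraries were not alike in these genes. Replicate 4 held the lowest Rho0 level of 7 of the 9 genes, all but GLUD1 and MDH1, whereas it was the lowest Rho0 library for 36.3% of all genes tested. The 9 genes summed to 745, 696, 661 and 592 CPM in Rho0, against 741, 772, 815 and 753 CPM in Eahy. With Rho0 replicates 2 and 4 both left out, an alternative chosen after seeing the data, 4 of the 9 genes were called higher and 2 lower.

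For each gene, the most similar of 10400 genes with at least 5 CPM was taken by Pearson's r of log2 CPM over the 8 libraries, a description in which the 8 points come from 2 lines. These were ID1 for ASNS (r = 0.999), TBRG4 for GOT2 (0.999), TRAP1 for MDH2 (0.998), TUBB3 for ASS1 (0.997) and TTLL1 for GPT2 (0.996). For genes that were not called they were CACNG7 for GOT1 (0.979), MKNK1 for GLUL (0.978), SLC22A4 for MDH1 (0.968) and FBXO34 for GLUD1 (0.965). TRAP1, a mitochondrial chaperone, averaged 184 CPM in Rho0 and 246 in Eahy, and ID1, an inhibitor of helix-loop-helix transcription factors, 162 CPM in Rho0 and 73.5 in Eahy.

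The neighbouring reactions were described with 104 further genes in 8 lists, of which 87 were tested. Of these, 31 were called higher (35.6%) and 24 lower (27.6%), again near the 29% and 25.4% of all genes. The lists differed among themselves, and their medians below are set against the 0.05 of all genes. With scaling by library size alone the median of all genes was 0.44, and 8583 of 15184 genes were called higher and 1540 lower. Medians and calls of the lists under that scaling are to be read against these values.

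Carriers that exchange aspartate, glutamate, malate or related acids across the inner mitochondrial membrane had 3 of 5 tested members called lower and 0 higher (3 and 2 with scaling by library size alone), and their median lay at -0.69 on the log2 scale. SLC25A13, a carrier that exports aspartate in exchange for glutamate, averaged 25.1 ± 0.623 CPM in Rho0 and 40.3 ± 1.88 CPM in Eahy (SD, n = 4 each; log2 fold change -0.69, standard error 0.07, adjusted p = 1.0e-05 in edgeR). Its paralog SLC25A12 had 11.3 ± 0.883 CPM in Rho0 and 9.86 ± 0.719 CPM in Eahy and was not called (0.19). The glutamate carrier SLC25A22 and the dicarboxylate carrier SLC25A10 fell by 0.81 and 0.92 on the log2 scale, and the malate carrier SLC25A11, with a log2 fold change of -0.09, was not called.

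Enzymes around malate and oxaloacetate had 7 of 15 called lower and 3 higher, with a median of -0.24. With scaling by library size alone the calls were 2 lower and 7 higher, with a median of 0.16, still below the 0.44 of all genes. Pyruvate carboxylase (PC), which makes oxaloacetate from pyruvate and so feeds aspartate synthesis, averaged 14.4 ± 2.31 CPM in Rho0 and 40.4 ± 2.72 CPM in Eahy (SD, n = 4 each; log2 fold change -1.50, standard error 0.12, adjusted p = 2.2e-06 in edgeR). Of the malic enzymes, the mitochondrial ME3 fell by 0.67 on the log2 scale and the cytosolic ME1 rose 1.57-fold. The log2 fold change of ME1 was 0.65, and 0.30 after correction for transcript length and GC content (adjusted p = 0.0487 in edgeR).

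Genes listed as plasma membrane carriers of amino acids had 7 of 11 called higher and 0 lower, with a median of 0.48 (9 and 0 by library size alone, with a median of 0.88). Of the 7, SLC38A5 was near the floor, with means of 1.25 CPM in Rho0 and 0.0445 CPM in Eahy. SLC1A4, a carrier of neutral amino acids, averaged 22.7 ± 3.06 CPM in Rho0 and 4.39 ± 0.371 CPM in Eahy (SD, n = 4 each), 5.17-fold higher in Rho0 (log2 fold change 2.37, standard error 0.12, adjusted p = 8.8e-08 in edgeR). SLC7A11, which imports cystine for glutamate, rose 4.85-fold, with 126 ± 38.8 CPM in Rho0 and 26.0 ± 1.82 CPM in Eahy (SD, n = 4 each). Its log2 fold change was 2.28, and 1.80 after correction for transcript length and GC content. SLC7A5, which exchanges large neutral amino acids, rose 2.47-fold. The glutamine carrier SLC1A5 had a log2 fold change of 0.23 and was not called, and the aspartate and glutamate carriers SLC1A1, SLC1A2 and SLC1A3 were too low to be tested.

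Other enzymes of glutamine and glutamate had 6 of 14 called higher and 3 lower, with a median of 0.31. With scaling by library size alone 8 were higher and 0 lower, with a median of 0.70. The serine-synthesis transaminase PSAT1, which uses glutamate, rose 3.34-fold, and the branched-chain transaminase BCAT1 rose to 233 ± 52.3 CPM in Rho0, against 145 ± 10.2 CPM in Eahy (SD, n = 4 each). Enzymes that use the amide of glutamine had 4 of 10 called higher and 3 lower, with a median of 0.05. These counts became 6 and 1 with library size alone, with a median of 0.44, and 3 and 3 with DESeq2 size factors. QRSL1, of mitochondrial glutaminyl-tRNA synthesis, rose 1.49-fold (log2 fold change 0.58, and 0.37 after correction for transcript length and GC content), while CTPS1, of CTP synthesis, and CAD, which starts pyrimidine synthesis and joins carbamoyl phosphate to aspartate, fell by 0.57 and 0.49 on the log2 scale. CAD was not called with scaling by library size alone (-0.10, edgeR adjusted p = 0.195).

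Users of aspartate and asparagine had 5 of 13 called higher and 4 lower, with a median of 0.14 (8 and 3 by library size alone, with a median of 0.53). ADSS1, an adenylosuccinate synthetase that uses aspartate, rose 3.75-fold and ASNSD1, which carries an asparagine synthetase domain, 1.72-fold. NAT8L, which makes N-acetylaspartate, had no count in the 4 Eahy libraries and 5.41 ± 1.09 CPM in Rho0 (SD, n = 4), at least 39.3-fold higher against a floor of 3 counts in each Eahy library.

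Genes of the urea cycle and arginine had 1 of 9 called higher and 3 lower, with a median of -0.14. With scaling by library size alone 3 were called higher and 2 lower, with a median of 0.25. ASL, which cleaves the argininosuccinate that ASS1 makes, went the other way from ASS1, with 33.6 ± 4.98 CPM in Rho0 and 61.4 ± 1.45 CPM in Eahy (SD, n = 4 each; log2 fold change -0.87, standard error 0.10, adjusted p = 4.1e-05 in edgeR). The mitochondrial arginase ARG2 fell by 2.09 on the log2 scale, and CPS1, which makes carbamoyl phosphate in mitochondria, rose 1.82-fold. The endothelial nitric oxide synthase NOS3, which uses arginine, had 581 ± 77.1 CPM in Rho0 and 587 ± 45.4 CPM in Eahy and was not called.

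The regulators listed were those of the amino acid response and others, among them MYC, which was called higher (log2 fold change 0.34). They had 5 of 10 called higher and 1 lower, with a median of 0.18 (8 and 0 by library size alone, with a median of 0.57). ATF4, the transcription factor that binds the ASNS element, had 323, 279, 293 and 244 CPM in Rho0, against 142, 139, 146 and 142 CPM in Eahy, a rise of 2.00-fold (adjusted p = 4.0e-06 in edgeR). The lines did not overlap. DDIT3 (CHOP), a stress-induced partner of C/EBP factors, rose 2.85-fold, and ATF3, another stress-response factor, fell by 0.67 on the log2 scale. ATF3 was not called with scaling by library size alone (-0.28, edgeR adjusted p = 0.0663). TRIB3, an inhibitor of ATF4, averaged 124 ± 22.8 CPM in Rho0 and 123 ± 9.26 CPM in Eahy and was not called.

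**Figure D4:**
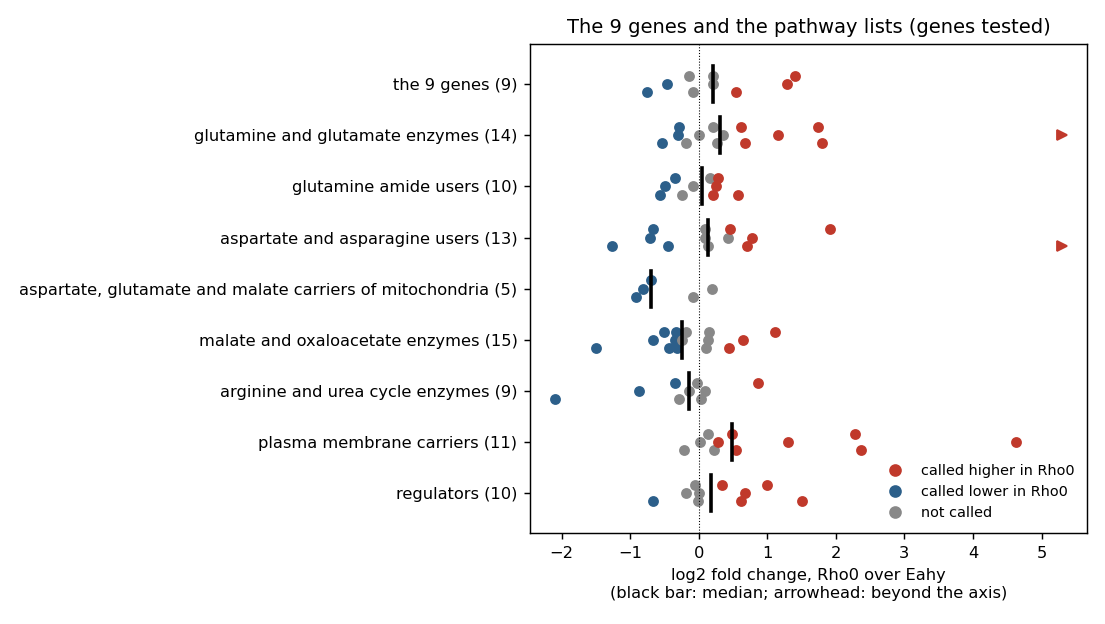
log2 fold change of Rho0 over Eahy (horizontal axis) of every tested gene in the 9-gene set and the 8 pathway lists, coloured by call, with list medians as black bars and the number tested in parentheses. Mitochondrial carriers lie mostly below 0 (median -0.69) and plasma membrane carriers mostly above it (median 0.48).

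The scaling of libraries changed the sign of GLUL and GLUD1 among the 9 genes, and the calls of GOT1, MDH1 and MDH2 too. With library size in place of TMM factors, the median over all genes was 0.44 on the log2 scale, against 0.05 with TMM, with 8583 genes called higher and 1540 lower, against 4399 and 3858. That library size includes messenger RNA of mitochondrial DNA, at most 0.149% of the Rho0 libraries and 16.05% to 21.4% of the Eahy libraries. The part of that RNA in the shift was not tested. All 9 genes moved up with the median. GLUL and GLUD1 were then called higher, at 0.25 and 0.30, as were GOT1 and MDH1, at 0.60 each, and MDH2 was not called (-0.07, adjusted p = 0.591). A change of scaling shifts all genes by nearly the same amount, so values relative to the median of all genes stay put by construction. They are no separate test. MDH2 lay at -0.51 under both scalings, GLUL at -0.19, GOT2 at -0.80 and ASS1 at 1.35.

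**Figure D5:**
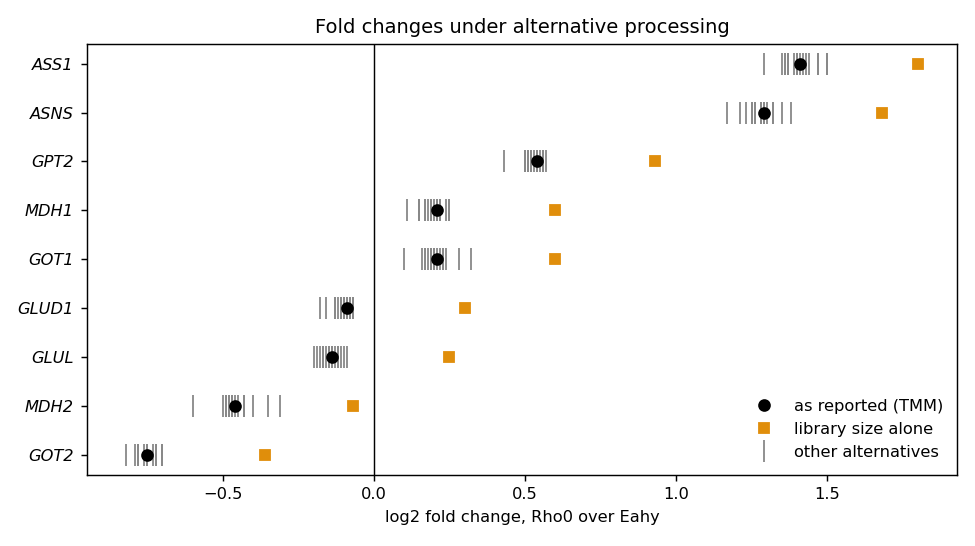
log2 fold change of Rho0 over Eahy (horizontal axis) of the 9 genes as reported (black), with library size alone (orange squares) and under the other 19 alternative fits (grey ticks). ASS1, ASNS, GPT2 and GOT2 keep their sign under all 20 alternatives, with GOT2 between -0.82 and -0.36.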

How the data were processed

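Bulk RNA-seq of 8 libraries (4 Rho0, 4 Eahy) was prepared with a strand-specific kit for poly-A RNA, as the labels' protocols state. Estimated counts per Ensembl gene were deposited by the authors, as was a table of normalized log2 values of 12885 genes. Of tools, kallisto, edgeR and limma, and of builds GRCh38, stand in the submitters' processing notes, without roles or versions. Symbols (34284 of 38010 IDs), lengths and coordinates came from a gene name table and GENCODE 29.

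Estimated counts were rounded, filtered with filterByExpr (minimum count 10), scaled by TMM and tested by the quasi-likelihood F-test of edgeR 4.0.16 under R 4.3.3, adjusted by Benjamini and Hochberg over all 15184 genes tested. CPM use TMM-scaled library sizes, in which 1 count was worth 0.02254 to 0.07535 CPM. The standard error is the log2 fold change over the square root of F. The floor of 3 counts used for NAT8L covers counting error alone. Standard errors and edgeR p-values cover the spread between cultures of 1 line each. Ratios of counts used exact permutation. The fit was tested on simulated data. No pair of replicates agreed within sampling noise (lowest chi-square per degree of freedom 4.21). Python 3.11.15 made tables and figures.

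The members, lists and tests were chosen with earlier results of these data known. Named pathway genes were the up to 3 called genes of each list with the largest change whose higher group averaged 5 CPM or more. A further few genes, named for a reaction shared with a member, were chosen after their values were seen. Of the named genes, 1 and a ratio that needs it are not reported here. Alternatives included DESeq2 1.42.0, limma 3.58.1 (voom, and trend on the deposited log2 table), other scalings and filters, a replicate block, leaving out each library, summed pseudogene copies and, added after seeing the data, a fit corrected for GC content and transcript length, and leaving out Rho0 replicates 2 and 4 together.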

Additional observations from a re-analysis of the deposited data

How the results depend on the processing

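ASNS, ASS1, GPT2 and GOT2 kept direction and call in all 20 alternative fits. With library size alone, 7 of the 9 genes were called higher and 1 lower, and 51 pathway genes higher and 11 lower. Of all 15184 genes tested, 8583 were called higher and 1540 lower in that fit, so these counts are no result about the genes. GLUL was at 0.25 and GLUD1 at 0.30 with library size alone, both with the sign turned. In the other fits 3 or 4 of the 9 genes were called higher and 2 or 3 lower. After correction for transcript length and GC content GLUL was called at -0.19, and with a filter of 50 counts in 4 libraries MDH1 was called at 0.24. Of 24 named pathway genes, 22 kept their call in every fit, all but CAD and ATF3. The cause of these changes was not tested.

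Same-numbered libraries did not deviate together (correlations -0.135, 0.0366, 0.00185 and 0.155). With 4 libraries in each line this cannot show whether same-numbered cultures were prepared together. A replicate block left 3 of the 9 genes called higher and 2 lower, and 30 and 23 pathway genes. For the ratios it allows no p below 0.125, which both reached, at differences of -0.95 (GOT2 to GOT1) and -0.69 (MDH2 to MDH1). Leaving out 1 library gave 3 to 4 genes higher, 2 to 3 lower, and differences of -1.01 to -0.90 for GOT2 to GOT1 and -0.81 to -0.56 for MDH2 to MDH1. Without Rho0 replicates 2 and 4 the differences were -1.01 (exact permutation p = 0.0667, the smallest possible) and -0.47 (0.133).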
